A study of Mus musculus with 9 samples.

Results

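Fc receptors bind the constant part of antibodies and let immune cells respond to antibody-coated targets. The genes described here were chosen by symbol and not by their measured values: Fcgr1, Fcgr2b, Fcgr3, Fcgr4, Fcer1g and Fcgrt, 6 of the 31053 genes in the deposited tables. Fcgr1 encodes the high-affinity receptor for IgG, and Fcgr3 and Fcgr4 encode activating receptors of lower affinity. Fcgr2b encodes the inhibitory receptor for IgG and is the classical IgG receptor of B cells. Fcer1g encodes the common gamma chain, the adaptor that carries the signal of the activating IgG receptors and of the high-affinity IgE receptor. Fcgrt encodes the neonatal Fc receptor, which pairs with beta-2 microglobulin and recycles IgG from endosomes. The activating receptors signal through tyrosines of the gamma chain that recruit the kinase Syk, whereas the inhibitory receptor recruits the phosphatase encoded by Inpp5d. In the gut lamina propria, the Fcgr1 protein is a classical surface marker of macrophages.

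Single cells of the lamina propria, labelled CD11b+ and taken from male C57BL/6 mice of 7 to 8 weeks, were profiled in 9 droplet libraries. The groups were 1 colon library labelled Nlrc4 deficient and treated with dextran sodium sulfate (DSS), 1 wild-type DSS colon library, 1 colon library from mice treated with pan-antibiotics, 2 germ-free (GF) colon libraries, 2 libraries from the small intestine of normal mice, and 2 wild-type specific pathogen-free (SPF) colon libraries. DSS is a detergent-like polymer given in drinking water that injures the colon epithelium, and the labels give 2.5% for 7 days as the general dose. The antibiotics were ampicillin, vancomycin, neomycin and metronidazole in drinking water. The study describes its wild-type SPF colon sample as pooled from several mice, and makes no such statement for the other groups here. It does not state that this sample is the 2 SPF colon libraries. Whether the 2 libraries of a group came from different mice is not stated in the labels, so that p-values here measure the spread between libraries, which may be technical.

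After the filter on mitochondrial content and gene number, 31759 cells remained, 1450 to 6698 a library, with 13243317 to 64453601 unique molecular identifiers (UMIs, counted molecules) a library. Cells were named from fixed marker genes, among which none of the 6 members stood, and levels are given in CPM, the UMIs of a gene relative to all UMIs of its class in that library. UMIs count one end of each molecule and are not scaled by gene length. A clustering of the cells gave the same class to between 38.9% (epithelial cell-like) and 99.2% (fibroblast-like) of a class. This share was 72.7% for macrophage-like, 89.1% for monocyte-like, 52.2% for type 1 dendritic cell-like and 50.6% for plasmacytoid dendritic cell-like cells. Despite the CD11b+ label, 4672 B cell-like and 2411 T cell-like cells were present. Small intestine replicate 1 stood apart, with 1785 plasma cell-like cells among 3654 cells. No pair of libraries shared more than 20 cell barcodes. In the library labelled Nlrc4 deficient, Nlrc4 stood at 35.5 CPM in macrophage-like cells and 37.0 CPM in monocyte-like cells, against 12.5 and 17.0 CPM in the wild-type DSS library. A 3′ tag can lie outside the deleted part of a gene, so this neither checks nor contradicts the label.

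Fcgr2b (ENSMUSG00000026656, chr1:170958617-170976547, minus strand), Fcgr4 (ENSMUSG00000059089, chr1:171018920-171029761, plus strand) and Fcgr3 (ENSMUSG00000059498, chr1:171051174-171064935, minus strand) lie within 106.3 kb of GRCm38. Fcer1g (ENSMUSG00000058715, chr1:171229572-171234365, minus strand) lies on the same chromosome, and all 4 fit in 275.7 kb. Fcgr1 (ENSMUSG00000015947, chr3:96282909-96293969, minus strand) and Fcgrt (ENSMUSG00000003420, chr7:45092990-45103851, minus strand) lie elsewhere. Transcripts of Fcgr2b and Fcgr3 shared 233 stretches of 31 bases, and 76 of the 1489 such stretches in the last 500 bases of Fcgr2b transcripts also occurred in Fcgr3. In the other direction, 5 of the 960 stretches in the last 500 bases of Fcgr3 transcripts occurred in Fcgr2b. The split of reads between Fcgr2b and Fcgr3 is therefore less certain than that of the other members, which shared none.

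The signalling tails are what sets the inhibitory receptor and the shared adaptor apart, and the coding stretches around their signalling tyrosine codons are shown with those codons in capitals. That of Fcgr2b lies in exon 7, at chr1:170961062-170961097 of GRCm38, and holds the inhibitory motif. That of Fcer1g runs over exons 4 and 5, at chr1:171229880-171230081 with the intron between them left out, and holds the paired tyrosines of the activating motif. Both are read on the minus strand, 5′ to 3′. Over whole coding sequences, the pattern of the inhibitory motif also matched 3 times in Fcgr1 and 1 time each in Fcgr4, Fcer1g and Fcgrt. The pattern alone therefore does not set Fcgr2b apart.
Fcgr2b: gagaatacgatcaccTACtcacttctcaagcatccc
Fcer1g: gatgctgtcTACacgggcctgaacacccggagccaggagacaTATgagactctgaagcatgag

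Promoters are shown because the members differed in which myeloid cells held them and in the DSS libraries. Windows of 150 bases, from 120 before to 30 after the RefSeq start of each gene on GRCm38.p6, were read for TTCCTC, the core bound by the myeloid factor PU.1, and for TTCNNNGAA, the core bound by STAT factors, on both strands. Matches are in capitals, and no match overlapped another.
Fcgr1, chr3:96293940-96294089, minus strand: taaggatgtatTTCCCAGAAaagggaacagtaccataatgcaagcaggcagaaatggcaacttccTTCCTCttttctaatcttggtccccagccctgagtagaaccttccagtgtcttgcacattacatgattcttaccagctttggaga
Fcgr3, chr1:171059374-171059523, minus strand: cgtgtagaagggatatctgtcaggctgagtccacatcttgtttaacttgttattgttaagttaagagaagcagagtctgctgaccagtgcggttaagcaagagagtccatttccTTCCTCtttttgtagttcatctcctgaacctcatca
Fcgr4, chr1:171018806-171018955, plus strand: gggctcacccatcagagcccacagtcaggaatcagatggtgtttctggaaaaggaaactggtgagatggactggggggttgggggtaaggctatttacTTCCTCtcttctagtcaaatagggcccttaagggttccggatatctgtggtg
Fcgr2b, chr1:170976042-170976191, minus strand: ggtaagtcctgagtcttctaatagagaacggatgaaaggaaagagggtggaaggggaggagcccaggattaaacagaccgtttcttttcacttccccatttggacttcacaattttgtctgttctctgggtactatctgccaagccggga

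TTCCTC stood 55 bases before the start of Fcgr1, 22 before that of Fcgr4 and 6 before that of Fcgr3, the activating receptors. TTCNNNGAA was matched in Fcgr1 alone, 109 bases before its start. Neither string was found in the 300 bases around the starts of Fcgr2b, Fcer1g and Fcgrt. Of 32851 mouse promoters of the same 300 bases, 28.3% held TTCCTC and 8.3% held TTCNNNGAA. A match is a description of the letters only, and its absence says nothing about a factor.

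The high-affinity receptor gene Fcgr1 was found mainly in mononuclear phagocytes. It ran from 19.2 CPM through a median of 73.6 to 191 CPM in resident macrophage-like cells and from 24.8 through 56.1 to 233 CPM in monocyte-like cells of the 9 libraries. Type 2 dendritic cell-like cells followed at 1.42, 5.09 and 56.3 CPM. The macrophage-like and monocyte-like ranges overlapped almost wholly, and in every library Fcgr1 was lower in type 2 dendritic cell-like than in monocyte-like cells. In neutrophil-like and eosinophil-like cells the median was 0 CPM, and their highest values, 72.0 and 66.5 CPM, were both in the DSS library. Over the libraries a median of 47.1% of all Fcgr1 UMIs came from monocyte-like cells, although these were a median of 5.96% of the cells, and 34.5% came from macrophage-like cells.

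Fcgr3, an activating receptor, was found at similar levels in 4 myeloid classes and at far lower levels in dendritic cells. Eosinophil-like cells, the granulocytes marked here by Ccr3 and Alox15, held the highest median, 316 CPM, with a range of 57.2 to 435 CPM. Of these 1624 cells, 533 held at least 2 of the class's markers, and a clustering of the cells gave 91.6% the same class. The neutrophil marker Retnlg was also among the leading genes of this class, as was G0s2 in the small intestine. Macrophage-like cells followed at 149, 246 and 299 CPM, neutrophil-like cells at 112, 191 and 330 CPM and monocyte-like cells at 119, 188 and 320 CPM. The 4 ranges overlapped. Outside them, NK cell-like cells had a median of 29.6 CPM and type 2 dendritic cell-like cells 25.7 CPM, far below the 4 myeloid medians. NK cells use this receptor to kill antibody-coated targets, but the clustering gave just 65.8% of the NK cell-like cells the same class. Their leading genes included the T cell markers Cd3g and Trbc1 in the small intestine and the T cell receptor gene Tcrg-C1 in SPF colon. The part of this in their Fcgr3 level was not tested.

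Fcgr4, the activating receptor for the mouse IgG2 subclasses, had its highest median in macrophage-like cells, with 35.0, 198 and 498 CPM as lowest, median and highest value. Neutrophil-like cells had 28.0, 140 and 257 CPM, monocyte-like cells 24.8, 113 and 367 CPM, and eosinophil-like cells 0, 35.8 and 195 CPM. Its spread over libraries was wide in each class, and the DSS library was highest in macrophage-like, monocyte-like and eosinophil-like cells. Type 2 dendritic cell-like cells had a median of 6.56 CPM. A median of 52.3% of Fcgr4 UMIs came from macrophage-like cells, which were 8.59% of the cells.

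The inhibitory receptor gene Fcgr2b was highest by median in macrophage-like cells, at 164, 307 and 499 CPM, and next in monocyte-like cells, at 154, 221 and 422 CPM. B cell-like cells followed at 49.0, 81.4 and 99.3 CPM, and their 9 values were the narrowest of any class with a median above 50 CPM. Eosinophil-like cells had a median of 63.3 CPM, type 2 dendritic cell-like cells 60.8 CPM and neutrophil-like cells 55.9 CPM, so that these 3 classes lay close to the B cells. Plasma cell-like cells had 25.6 CPM, and T cell-like cells 4.62 CPM.

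The adaptor gene Fcer1g was found across the myeloid classes and in NK cell-like cells. It had 1040, 1410 and 2398 CPM in monocyte-like cells, 871, 1233 and 2006 CPM in neutrophil-like cells and 691, 1017 and 2090 CPM in macrophage-like cells. NK cell-like cells had a median of 870 CPM, eosinophil-like cells 707 CPM and innate lymphoid cell-like cells 328 CPM. The highest value of macrophage-like, monocyte-like, neutrophil-like and eosinophil-like cells was in the library labelled Nlrc4 deficient each time. B cell-like cells had a median of 29.0 CPM, the lowest among the immune cell classes. Thus Fcer1g was present in NK cell-like and innate lymphoid cell-like cells, where of the IgG receptor genes only Fcgr3 had a median above 10 CPM.

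Fcgrt followed another pattern. Fibroblast-like cells held the highest median among classes found in 6 or more libraries, at 158, 190 and 246 CPM over 8 libraries. Macrophage-like cells had 29.2, 91.9 and 187 CPM, type 2 dendritic cell-like cells 18.1, 55.8 and 77.5 CPM, type 1 dendritic cell-like cells 44.4, 53.7 and 73.9 CPM and monocyte-like cells 11.2, 33.1 and 72.8 CPM. Endothelial cell-like cells, a known site of IgG recycling, reached 20 cells in just 2 libraries and had 287 and 206 CPM there. Plasmacytoid dendritic cell-like cells, also found in 2 libraries, had 87.0 and 211 CPM. Neutrophil-like and eosinophil-like cells had medians of 2.38 and 0 CPM, so that the granulocyte classes, rich in Fcgr3, held almost no Fcgrt.

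**Figure D1:**
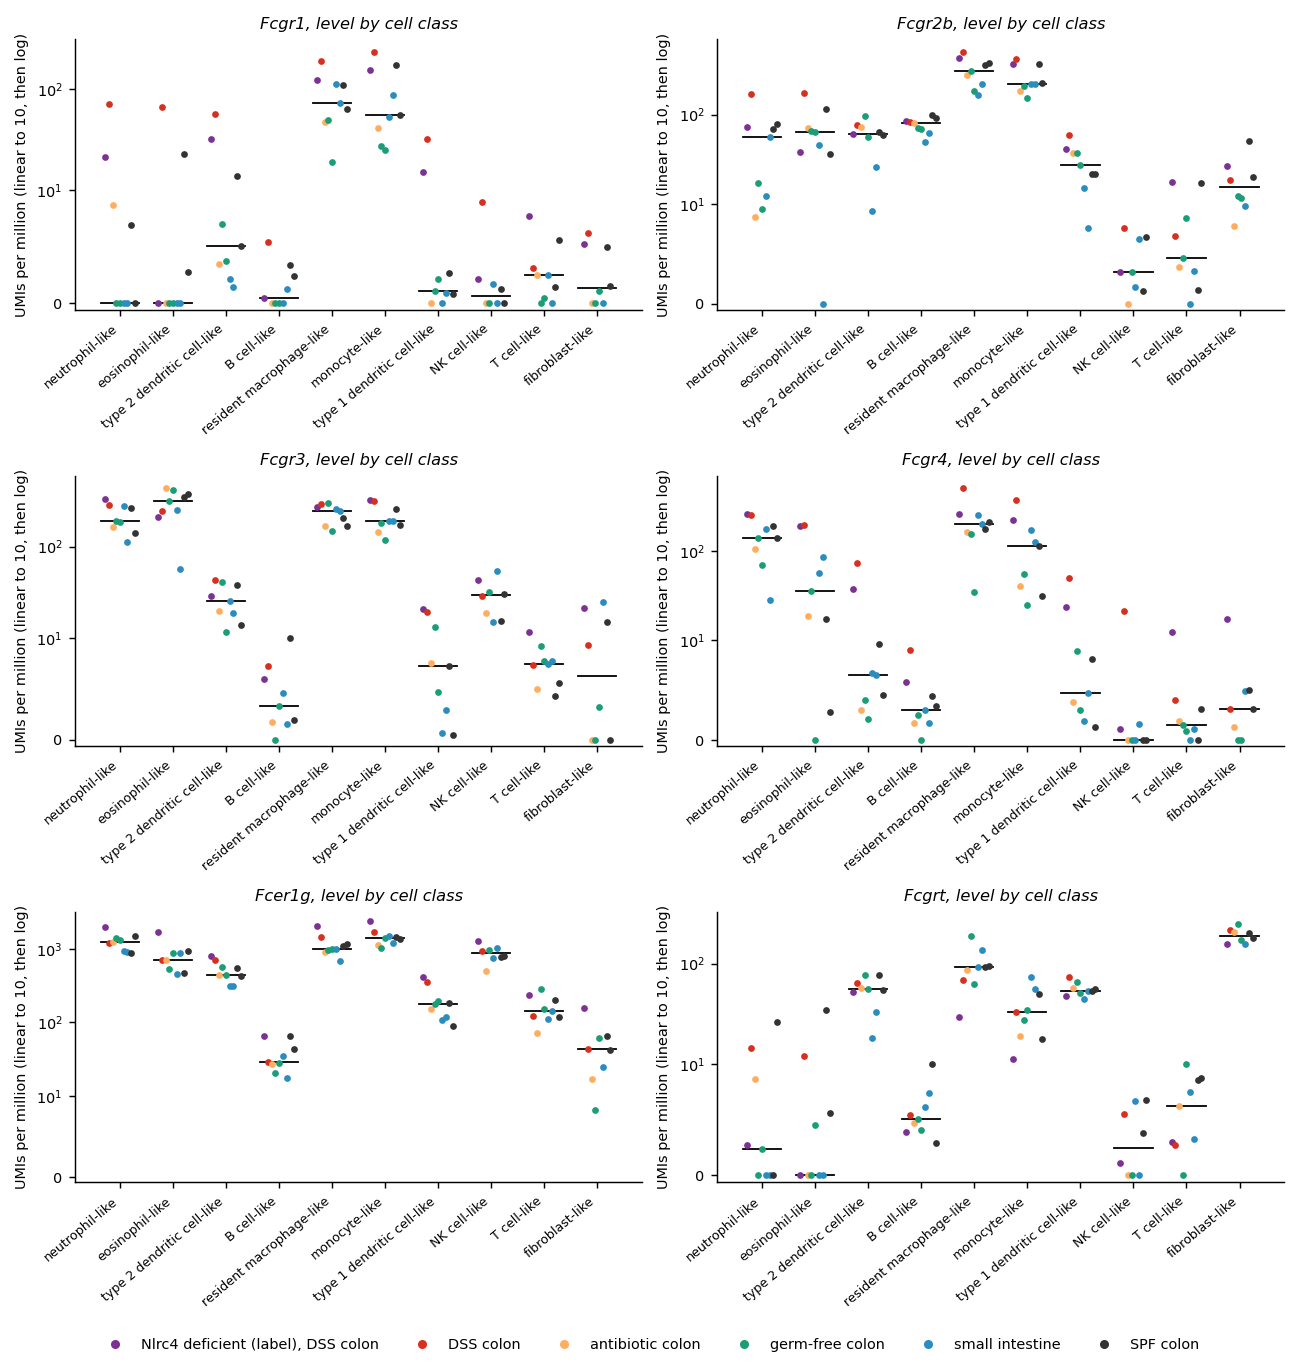
Level of each member in 10 cell classes, in CPM on an axis that is linear to 10 and logarithmic above; each point is 1 library, coloured by group, and each bar is the median over libraries. Fcgr1 is concentrated in macrophage-like (median 73.6 CPM) and monocyte-like cells (56.1 CPM), Fcgr3 also in eosinophil-like cells (316 CPM), and Fcgrt in fibroblast-like cells (190 CPM).

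The order of classes by median was examined between neighbours with an exact two-sided sign-flip permutation test over libraries. None of 78 neighbouring pairs over the 6 genes passed after Benjamini-Hochberg adjustment (smallest adjusted p = 0.102, exact sign-flip permutation test), and 13 had an unadjusted p under 0.05. The smallest p that 9 libraries allow is 0.0039. Fcgr1 was higher in monocyte-like than in type 2 dendritic cell-like cells in 9 of 9 libraries (mean log2 difference 3.09 ± 1.10, SD, n = 9, exact p = 0.0039). Fcgrt was higher in fibroblast-like than in macrophage-like cells in 8 of 8 libraries (1.17 ± 0.69, SD, n = 8, exact p = 0.0078). Fcgr1 in macrophage-like against monocyte-like cells (higher in 4 of 9) and Fcgr3 in neutrophil-like against monocyte-like cells (higher in 6 of 9) did not differ beyond their spread.

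Free RNA gives some UMIs in any droplet, and shares of cells were therefore set beside T cell-like cells after each cell was thinned to 1000 UMIs, which left out 766 eosinophil-like, 322 macrophage-like, 119 monocyte-like, 70 neutrophil-like and 33 T cell-like cells. At that depth a median of 7.69% of monocyte-like cells held a Fcgr1 UMI, against a median of 0% and a highest value of 0.498% of T cell-like cells (30.6% and 0.843% without thinning). Fcgr3 was found in 31.1% of eosinophil-like cells, against 0.505% among T cells (26.9% and 2.80% without thinning, where eosinophil-like cells were far shallower). These eosinophil-like shares cover 6 libraries, with 1456 cells before and 812 after thinning. The small intestine libraries and the library labelled Nlrc4 deficient are not among them. Fcgr2b was found in 7.02% of B cell-like cells against 0.515% of T cell-like cells. For Fcer1g the T cell-like share was itself 10.4%, against 70.5% in monocyte-like cells. Median depths before thinning ran over libraries from 843 to 1296.5 UMIs in eosinophil-like cells of the same 6 libraries, 3957.5 to 9723.5 in monocyte-like, 2758 to 4958 in B cell-like and 4108.5 to 5519.5 in T cell-like cells. Small intestine replicate 1, outside those 6, had a median of 733 UMIs in eosinophil-like cells.

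The classes were next compared within libraries with edgeR's quasi-likelihood test on summed UMIs, with the library as a block and adjustment over all genes tested. In the mouse, monocytes that enter the gut give rise to resident macrophages. Of the 6 members 3 passed between macrophage-like and monocyte-like cells, where 28.8% of 9618 genes passed. Fcgrt was higher in macrophage-like cells (log2 fold change 1.29 ± 0.19, SE, adjusted p = 7.3e-05 by edgeR), and it was higher there in 9 of 9 libraries. Fcgr4 was also higher in 9 of 9 libraries (0.91 ± 0.22, adjusted p = 0.0049 by edgeR). Fcer1g was lower in 9 of 9 libraries (log2 fold change -0.39 ± 0.09, adjusted p = 0.0030 by edgeR). Fcgr1 (-0.12 ± 0.16), Fcgr2b (0.21 ± 0.12) and Fcgr3 (0.08 ± 0.12) did not pass, so that the receptor genes themselves split into those that differed between these classes and those for which no difference was found. Without the library block the calls of Fcgr4 and Fcer1g were lost (0.66 and -0.37, adjusted p = 0.34 and 0.25 by edgeR).

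Around them, the list of receptors and adaptors that signal through such tyrosine pairs had 0 of 10 tested genes higher and 5 lower in macrophage-like cells, with a median log2 fold change of -0.39, against 0.03 over all genes. This list also holds Hcst, an adaptor without such a pair. Clec4e (-1.73 ± 0.14), a receptor for damaged cells and mycobacterial glycolipid, Clec4d (-1.40 ± 0.13), Trem1 (-1.88 ± 0.21), an amplifier of inflammation, and Tyrobp (-0.81 ± 0.09), the adaptor most like Fcer1g, were lower as well. Of 14 kinases and adaptors 2 were higher and 3 lower, among them the adaptor Blnk (1.43 ± 0.22) and the Src-family kinase Fgr (-1.04 ± 0.16). Of 7 inhibitory phosphatases and adaptors 3 were higher and 1 lower. Inpp5d, the phosphatase of the inhibitory receptor, was higher (0.49 ± 0.11), as were Dok1 (0.67 ± 0.14) and Inppl1 (0.57 ± 0.19), and Ptpn6 was lower (-0.35 ± 0.10). B2m, the partner of the neonatal receptor, did not pass (0.02 ± 0.10), whereas Fcgrt did. None of 5 tested genes among the other Fc receptors passed in this edgeR fit.

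Neutrophil-like cells differed from monocyte-like cells at 5 of the 6 members, where 53.8% of 6278 genes passed. Fcgr1 was lower in neutrophil-like cells of 9 of 9 libraries (log2 fold change -2.35 ± 0.35, adjusted p = 5.6e-06 by edgeR), as was Fcgr2b (-1.99 ± 0.27, adjusted p = 1.3e-06 by edgeR), and Fcgrt was lower in 8 of 9 (-1.58 ± 0.44). Fcgr4 was higher in 7 of 9 libraries (0.93 ± 0.28, adjusted p = 0.0072 by edgeR), a call that was lost with classes taken from clusters (0.60, adjusted p = 0.081) and without the library block (0.75, adjusted p = 0.15). Fcgr3 was just past the threshold (0.44 ± 0.18, adjusted p = 0.047 by edgeR), and the call was lost under most alternatives, including the removal of any 1 library other than SPF replicate 2 (adjusted p = 0.053 to 0.26). Fcer1g did not pass (0.12 ± 0.17). Of the 9 tested tyrosine-pair receptors and adaptors 8 were higher, with a median of 1.78 against -0.19 over all genes. They included Clec4d (3.23 ± 0.17), Trem1 (2.96 ± 0.17) and Cd300ld (2.92 ± 0.19), and also Hcst (2.82 ± 0.20), the listed adaptor without a tyrosine pair. Dok3 (2.09 ± 0.20) and Inpp5d (0.97 ± 0.23), both inhibitory, were also higher.

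Eosinophil-like cells were lower than monocyte-like cells in 9 of 9 libraries for 5 members, where 50.2% of 6549 genes passed. These were Fcgr1 (-3.09 ± 0.38), Fcgr2b (-2.0 ± 0.24), Fcgr4 (-1.43 ± 0.27), Fcer1g (-1.14 ± 0.16) and Fcgrt (-2.22 ± 0.44), with adjusted p of 2.4e-04 or less by edgeR. Fcgr4 lost its call without the library block (-1.27, adjusted p = 0.10). Fcgr3 was the exception (0.39 ± 0.26, adjusted p = 0.22 by edgeR), and it passed as higher with the stricter filter on cells (0.71, adjusted p = 0.014) and with the stricter marker gate (0.74, adjusted p = 0.016). The eosinophil-like cells were thus richer in Fcgr3 relative to their other IgG receptor genes. Among the tyrosine-pair list 3 of 9 were higher and 4 lower: Cd300ld (2.04 ± 0.20) and Pira2 (1.18 ± 0.18), a partner of the gamma chain, were higher, and Trem2 (-3.11 ± 0.56) was lower. The Src-family kinase Lyn (-1.03 ± 0.17) was lower and Inpp5d (0.72 ± 0.20) was higher. B2m was lower (-0.67 ± 0.16), in the same direction as Fcgrt.

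Type 2 dendritic cell-like cells were lower than macrophage-like cells at all 6 members, where 57.2% of 10425 genes passed. The log2 fold changes were -4.17 ± 0.29 for Fcgr4, -3.17 ± 0.37 for Fcgr1, -3.10 ± 0.13 for Fcgr3, -2.48 ± 0.19 for Fcgr2b and -1.10 ± 0.09 for Fcer1g, each lower in 9 of 9 libraries with adjusted p of 2.4e-06 or less by edgeR. Fcgrt differed least (-0.66 ± 0.25, adjusted p = 0.032 by edgeR, lower in 8 of 9), and its call was lost when either small intestine library, SPF replicate 2, GF replicate 1 or the antibiotic library was left out (-0.67 to -0.48). Of 14 kinases and adaptors 9 were lower and 3 higher, of which Fyn (1.86 ± 0.13) was higher and Blnk (-2.51 ± 0.23) and Lcp2 (-0.94 ± 0.10) were lower. Trem2, a lipid receptor of macrophages, was lower by the most in its list (-6.62 ± 0.25). B2m was lower as well (-0.74 ± 0.07).

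B cell-like cells were also lower than macrophage-like cells at all 6 members, where 71.6% of 10257 genes passed. Fcgr2b was the closest to macrophages (-2.28 ± 0.13), while the others ran from -6.30 ± 0.19 for Fcgr4 to -4.23 ± 0.19 for Fcgrt, each lower in 9 of 9 libraries. Of the other Fc receptors 5 of 8 tested were higher and 2 lower. Fcmr (6.37 ± 0.24), the receptor for IgM, Fcrla (5.72 ± 0.21), Fcer2a (5.66 ± 0.32), the low-affinity IgE receptor, and Fcrl1 (3.91 ± 0.22) were higher. Of 10 tyrosine-pair genes 9 were lower, including Tyrobp (-4.22 ± 0.12). B cell-like cells thus held a set of Fc receptor genes that overlapped with that of macrophages chiefly at Fcgr2b. The inhibitory genes Inpp5d (0.99 ± 0.16) and Dok3 (0.99 ± 0.14) were higher in B cell-like cells.

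**Figure D2:**
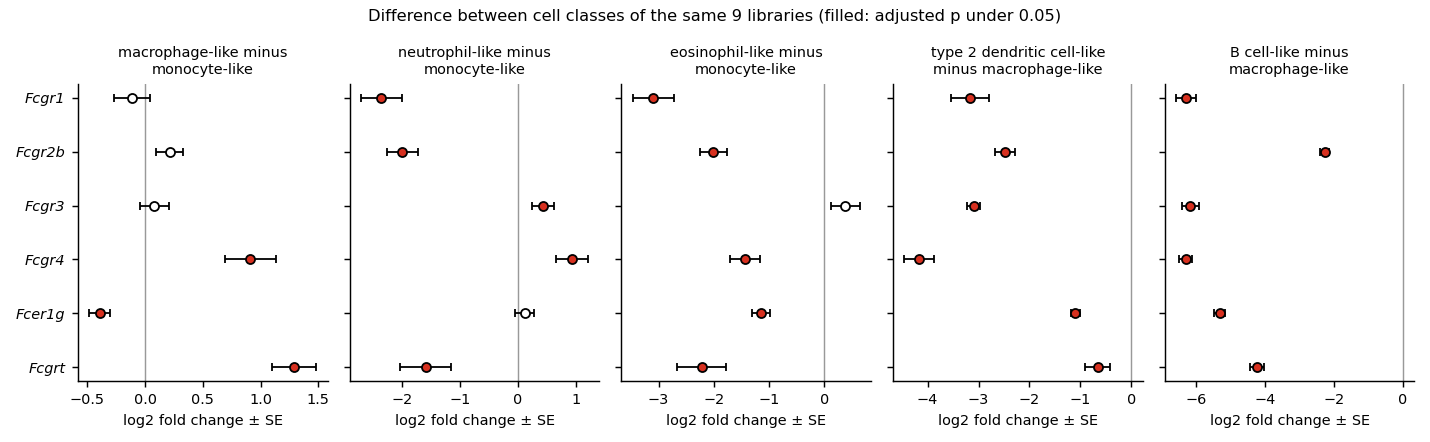
Log2 fold change of each member (points, with standard errors) between pairs of cell classes of the same 9 libraries, first class minus second; filled points passed at an adjusted p under 0.05 in edgeR. Fcgrt (1.29) and Fcgr4 (0.91) are higher and Fcer1g (-0.39) is lower in macrophage-like than in monocyte-like cells, and Fcgr2b (-2.28) is the member that differs least between B cell-like and macrophage-like cells.

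The balance of activating to inhibitory receptors was read as the share of Fcgr1, Fcgr3 and Fcgr4 UMIs among those of all 4 Fc gamma receptor genes, which does not depend on how a library is scaled. The share averaged 89.7% in neutrophil-like cells against 59.4% in monocyte-like cells, a difference of 30.3 ± 11.5 percentage points (SD, n = 8 libraries, higher in 8 of 8, adjusted p = 0.013 over 5 pairs, exact two-sided sign-flip permutation test). In eosinophil-like cells it averaged 84.9% against 59.4% in monocyte-like cells (25.5 ± 10.3 points, n = 8, higher in 8 of 8, exact adjusted p = 0.013). Type 2 dendritic cell-like cells averaged 47.0% against 62.1% in macrophage-like cells (-15.0 ± 13.9 points, n = 9, lower in 7 of 9, exact adjusted p = 0.034). B cell-like cells averaged 9.87% against 62.1% in macrophage-like cells (-52.2 ± 8.4 points, n = 9, lower in 9 of 9, exact adjusted p = 0.013). Macrophage-like and monocyte-like cells averaged 62.1% and 60.0%, a difference of 2.0 ± 5.8 points (n = 9, higher in 5 of 9) that did not pass (exact p = 0.37), although with classes taken from clusters it was 3.2 points and passed (exact adjusted p = 0.047).

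The granulocyte classes thus held mostly activating receptor UMIs, and monocyte-like cells held a lower share of them. By library, the macrophage-like share was 60.3% in the library labelled Nlrc4 deficient, 66.4% in the DSS library, 57.4% in the antibiotic library, 62.0% and 52.3% in the GF libraries, 79.0% and 70.0% in the small intestine libraries, and 57.5% and 53.6% in the SPF libraries. Both small intestine values lay above every colon value in this class. In type 2 dendritic cell-like cells the share ran from 23.7% in GF replicate 2 to 78.8% in small intestine replicate 1, wider than in the other 5 classes of these comparisons. The shares count UMIs of single genes, and the counts of Fcgr2b and Fcgr3 are less certain because their transcripts share stretches.

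**Figure D3:**
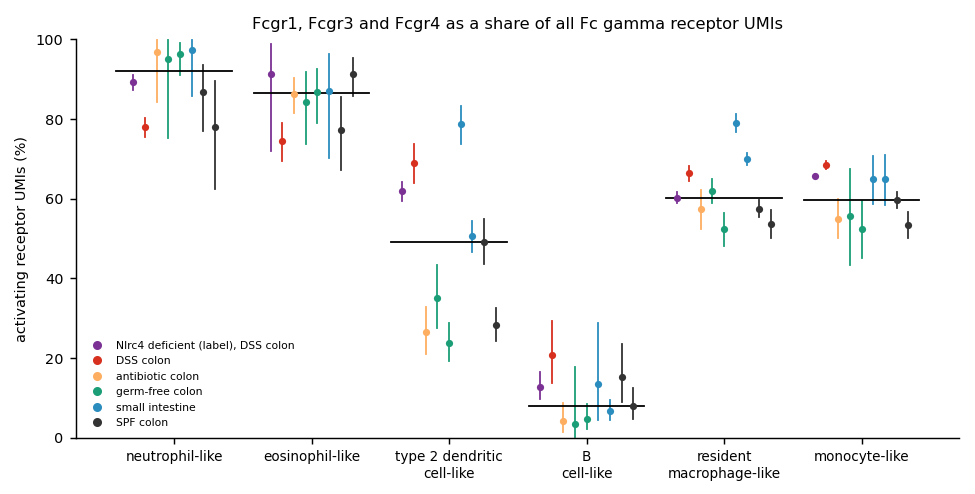
UMIs of Fcgr1, Fcgr3 and Fcgr4 as a percentage of all Fc gamma receptor UMIs, by cell class; each point is 1 library with its exact 95% binomial interval (counting error only) and each black bar is the median over libraries. Neutrophil-like (median 92.2%) and eosinophil-like cells (86.7%) sit above monocyte-like cells (59.8%), and B cell-like cells (7.88%) sit below macrophage-like cells (60.3%).

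To ask whether the microbiota or the gut segment bears on these genes, the GF colon and small intestine libraries were each compared with the SPF colon libraries within 4 classes, in edgeR fits with 2 libraries a group. No member passed in any of the 8 comparisons in these fits. In GF against SPF colon, edgeR called 0 genes in macrophage-like cells (0% of 8633 tested, with 250 at an unadjusted p under 0.05 and 2 called by DESeq2), 0 in monocyte-like cells (0% of 5720, 201 and 0), 0 in eosinophil-like cells (0% of 3105, 66 and 0) and 0 in type 2 dendritic cell-like cells (0% of 10308, 318 and 1).

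Fcgr1 had the largest differences between GF and SPF colon. In monocyte-like cells it stood at 27.2 and 24.8 CPM in the GF libraries, against 174 and 56.1 CPM in the SPF libraries, and the groups did not overlap (log2 fold change -2.06 ± 0.61, unadjusted p = 0.0075, adjusted p = 0.999 by edgeR). The GF values rested on 4 and 15 UMIs from 30 and 76 cells. In macrophage-like cells it stood at 49.2 and 19.2 CPM in the GF libraries, against 111 and 63.8 CPM in the SPF libraries, again without overlap (-1.31 ± 0.45, unadjusted p = 0.016, adjusted p = 0.999 by edgeR). Fcgr1 passed in both classes when no filter on low counts was applied (adjusted p = 0.0064 in monocyte-like and 0.019 in macrophage-like cells), a setting under which edgeR called 42 and 74 genes. The antibiotic library, with 41.2 and 47.0 CPM of Fcgr1 in monocyte-like and macrophage-like cells, also lay below both SPF libraries.

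Fcgr4 pointed the same way without clear separation. In macrophage-like cells it had 153 and 35.0 CPM in the GF libraries, against 173 and 207 CPM in the SPF libraries (-0.96 ± 0.53), and in monocyte-like cells 54.4 and 24.8 CPM against 113 and 31.4 CPM (-0.98 ± 0.65). The macrophage-like GF values lay far apart, and without SPF replicate 1 the monocyte-like difference changed sign (0.16). Fcgr2b in macrophage-like cells had 307 and 185 CPM in the GF libraries, against 361 and 381 CPM in the SPF libraries (-0.53 ± 0.31). Fcer1g differed by less than 1 standard error in all 4 classes, as did Fcgr3 and Fcgr2b in eosinophil-like cells. There Fcgr1, Fcgr4 and Fcgrt, with 5, 18 and 9 UMIs over the 6 libraries, did not pass the filter on low counts.

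In the small intestine against SPF colon, edgeR called 0 genes in macrophage-like cells (0% of 8633 tested, with 696 at an unadjusted p under 0.05 and 46 called by DESeq2), 0 in monocyte-like cells (0% of 5720, 217 and 0), 11 in eosinophil-like cells (0.354% of 3105) and 12 in type 2 dendritic cell-like cells (0.116% of 10308). The members that differed most were in type 2 dendritic cell-like cells. Fcgr1 had 2.15 and 1.42 CPM in the small intestine libraries, against 14.0 and 5.09 CPM in the SPF colon libraries (-2.26 ± 0.57, adjusted p = 0.20 by edgeR). Fcgr2b had 9.32 and 26.3 CPM, against 64.0 and 59.4 CPM in SPF colon (-1.65 ± 0.46, adjusted p = 0.23 by edgeR). Fcgrt had 18.1 and 33.1 CPM, against 77.2 and 54.3 CPM in SPF colon (-1.23 ± 0.35, adjusted p = 0.23 by edgeR). The groups did not overlap for any of the 3, whereas Fcgr3 and Fcgr4 in the same cells differed by less than 1 standard error.

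Without small intestine replicate 1, which stands apart, the differences were -2.52, -1.09 and -0.84 for Fcgr1, Fcgr2b and Fcgrt. These 3 members passed when no filter on low counts was applied (adjusted p = 6.0e-04, 6.3e-06 and 0.0022 for Fcgr1, Fcgr2b and Fcgrt), a setting under which 570 genes were called. DESeq2 called Fcgr2b (adjusted p = 0.031). The small intestine cells of this class were led by Plet1, and those of SPF colon by Cd209a, Mgl2 and Clec10a, and the part of this in the result was not tested. In macrophage-like cells Fcgr2b had 164 and 222 CPM in the small intestine libraries, against 361 and 381 CPM in SPF colon, without overlap (-0.98 ± 0.31, unadjusted p = 0.011, adjusted p = 0.53 by edgeR; -0.76 without small intestine replicate 1). Fcgr3 had 259 and 246 CPM there, against 204 and 169 CPM in SPF colon (0.39 ± 0.33), and the macrophage-like activating share described above was accordingly higher in both small intestine libraries. In monocyte-like cells Fcgr4 had 168 and 125 CPM in the small intestine, against 113 and 31.4 CPM in SPF colon (1.06 ± 0.54, adjusted p = 0.92 by edgeR). In eosinophil-like cells Fcgr3 had 249 and 57.2 CPM in the small intestine, against 350 and 381 CPM in SPF colon (-1.01 ± 0.47, adjusted p = 0.49 by edgeR). The lower value came from 32 cells, and without small intestine replicate 1 the difference was -2.82.

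**Figure D4:**
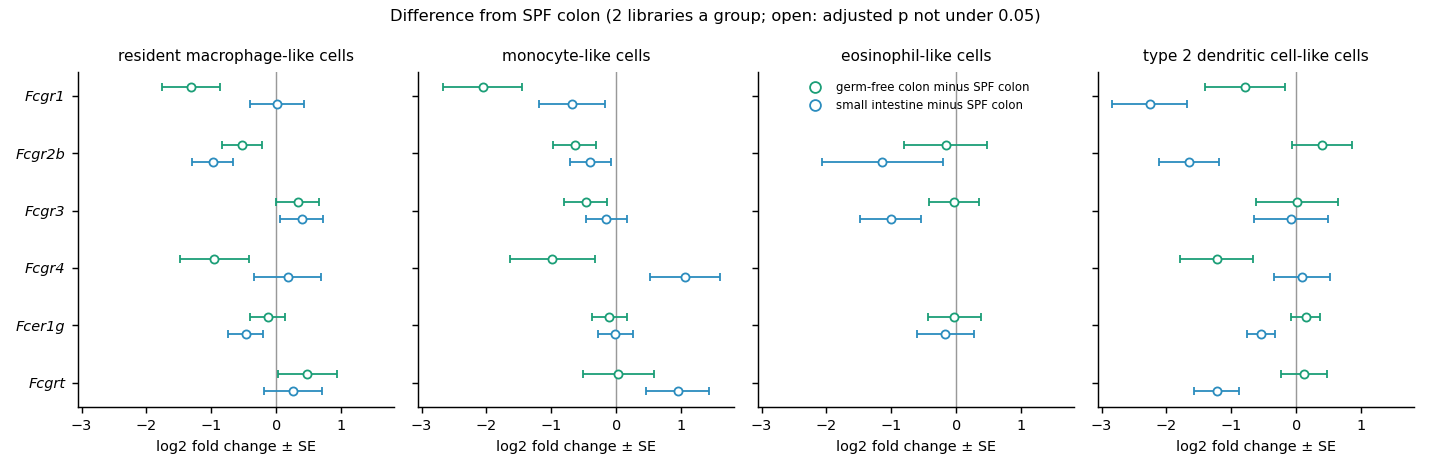
Log2 fold change of each member (points, with standard errors) in germ-free colon minus SPF colon and in small intestine minus SPF colon, for 4 cell classes with 2 libraries a group; open points did not pass at an adjusted p under 0.05 in edgeR, and members without a point did not pass the filter on low counts. Every point is open, and Fcgr1 lies furthest from 0 in germ-free monocyte-like cells (-2.06) and in small intestine type 2 dendritic cell-like cells (-2.26).

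The DSS, antibiotic and Nlrc4-labelled libraries had 1 library each and allow no test. Their values are given against the mean of the SPF libraries on the log2(CPM + 5) scale, with a standard error of counting only, and "past 2-fold" is a rule of size. In macrophage-like cells, Fcgr4 had 498 CPM in the DSS library, against 173 and 207 CPM in the SPF libraries (log2 ratio 1.37 ± 0.07), and Fcgr1 had 191 CPM against 111 and 63.8 CPM (1.08 ± 0.11). These were the 2 members past 2-fold, as were 4.37% of 9997 genes. The macrophage-like cells compared sat in different clusters: 45.6% of those of the DSS library were in cluster 6, which carried monocyte markers, and 33.6% in cluster 7, which carried macrophage markers but was led by pancreatic enzyme genes such as Ctrb1 and Try4, against 61.9% and 43.0% in cluster 7 in the SPF libraries. With classes taken from clusters neither member was past 2-fold (0.98 for Fcgr4 and 0.67 for Fcgr1). Fcgr3 (295 CPM, against 204 and 169 CPM), Fcgr2b (499 CPM, against 361 and 381 CPM) and Fcer1g (1480 CPM, against 1106 and 1171 CPM) also lay above both SPF libraries. Fcgrt, at 68.5 CPM in the DSS library, lay below both SPF libraries, at 91.9 and 94.6 CPM.

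In monocyte-like cells, Fcgr4 had 367 CPM in the DSS library, against 113 and 31.4 CPM in the SPF libraries (2.27 ± 0.08), and was the only member past 2-fold, as were 3.11% of 10715 genes. Fcgr1 had 233 CPM, against 174 and 56.1 CPM (0.99 ± 0.07). The SPF libraries themselves lay far apart at both genes. In type 2 dendritic cell-like cells, Fcgr4 had 72.6 CPM in the DSS library, against 9.61 and 4.54 CPM in SPF (2.68 ± 0.25), and Fcgr1 had 56.3 CPM, against 14.0 and 5.09 CPM (2.08 ± 0.24), where 3.02% of 10796 genes were past 2-fold. Fcgr1 and Fcgr4 were thus the members furthest above SPF in all 3 classes. Over the type 2 dendritic cell-like cells the 10 monocyte markers summed to 2575 CPM in the DSS library, against 1893 and 1076 CPM in SPF, with all 10 detected in the DSS library. Their part in the result was not tested. The 10 macrophage markers summed to 235 CPM in these dendritic cell-like cells of the DSS library, against 254 and 268 CPM in SPF.

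Granulocyte classes of the DSS library were read in the same way. In eosinophil-like cells, Fcgr4 had 195 CPM (97 UMIs) in the DSS library, against 17.2 and 2.80 CPM in the SPF libraries (3.74 ± 0.70), and Fcgr1 had 66.5 CPM (33 UMIs), against 22.9 and 2.80 CPM, where 13% of 5941 genes were past 2-fold. With classes taken from clusters the log2 ratios of these genes were lower, at 1.99 for Fcgr4 and 0.79 for Fcgr1, against 3.74 and 2.00. Fcgr2b had 173 CPM, against 115 and 36.4 CPM. Fcgr3 had 246 CPM there, below both SPF libraries, at 350 and 381 CPM. In neutrophil-like cells, Fcgr1 had 72.0 CPM (115 UMIs) in the DSS library, against 6.97 and 0 CPM in SPF (1 UMI in all), and Fcgr2b had 171 CPM, against 69.7 and 78.7 CPM (1.15 ± 0.34), where 25.5% of 7984 genes were past 2-fold. Fcgr4 was not past 2-fold in these cells, at 248 CPM in the DSS library, against 188 and 140 CPM in SPF (0.58 ± 0.23). With classes taken from clusters the neutrophil-like log2 ratios were 1.07 for Fcgr1, 0.92 for Fcgr2b and 1.01 for Fcgr4.

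Markers of mononuclear cells moved with these values. In eosinophil-like cells the macrophage markers summed to 621 CPM in the DSS library (9 of 10 detected, Folr2 at 0), against 447 and 61.6 CPM in SPF, and the monocyte markers to 1793 CPM (10 of 10), against 900 and 537 CPM. In neutrophil-like cells the macrophage markers summed to 872 CPM in the DSS library (9 of 10 detected, Folr2 at 0), against 404 and 210 CPM in SPF, and the monocyte markers to 2842 CPM (10 of 10), against 1143 and 1539 CPM. In T cell-like cells of the DSS library Fcgr1 and Fcgr4 had 3.07 and 4.00 CPM, with 64.6 CPM of macrophage and 1275 CPM of monocyte markers. The part of these markers in the granulocyte values was not tested.

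**Figure D5:**
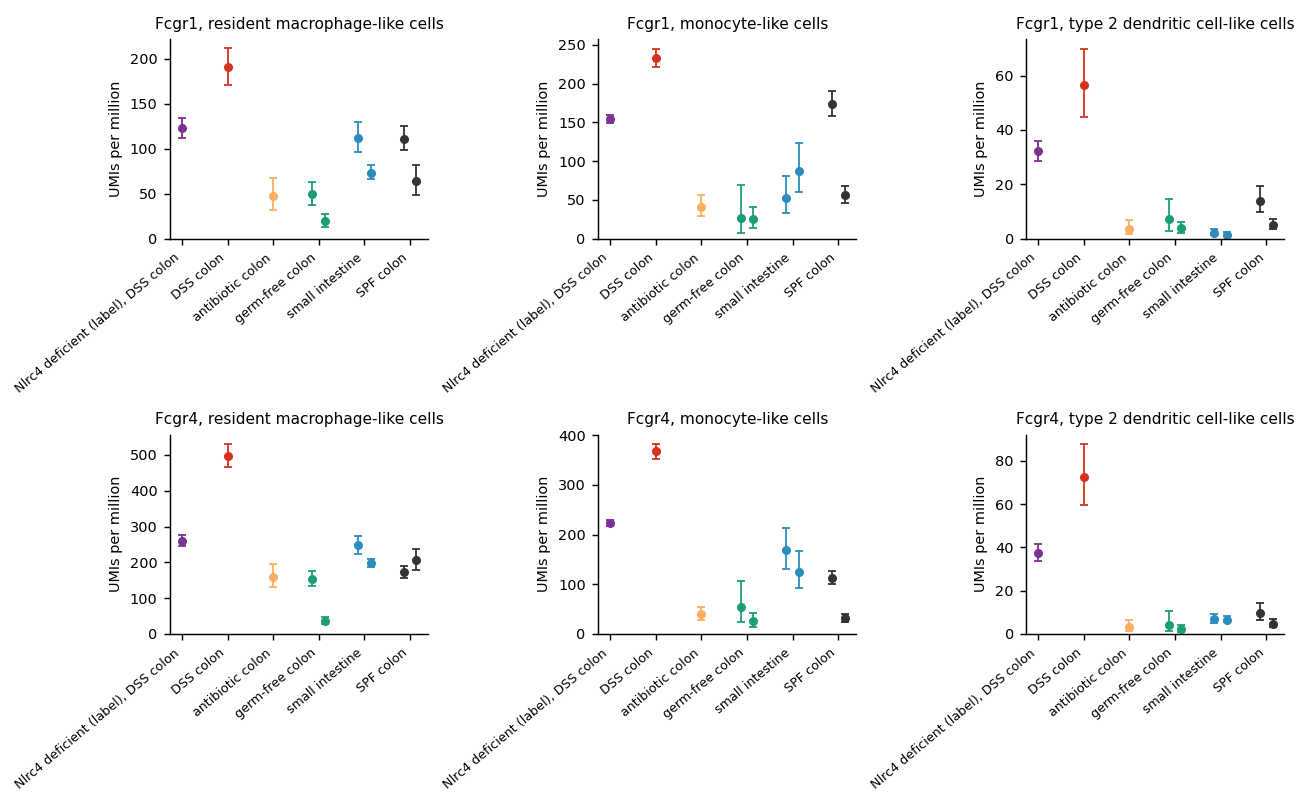
Fcgr1 (top) and Fcgr4 (bottom) in CPM for each library, by group, in 3 cell classes; bars are exact 95% Poisson intervals and cover counting error only. The DSS library is highest in each panel, at 191, 233 and 56.3 CPM for Fcgr1 and 498, 367 and 72.6 CPM for Fcgr4, and the antibiotic library lies below both SPF libraries for Fcgr1 in all 3 classes.

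The library labelled Nlrc4 deficient was set against the wild-type DSS library. Fcgrt was the member past 2-fold in macrophage-like cells, at 29.2 against 68.5 CPM (-1.10 ± 0.18), and in monocyte-like cells, at 11.2 against 33.1 CPM (-1.23 ± 0.14), where 12.7% of 9794 and 7.23% of 11988 genes were past 2-fold. The median log2 ratio of all genes was itself -0.26 and -0.21 there, and B2m had -0.82 and -0.79. With classes taken from clusters, however, the macrophage-like differences of Fcgrt (0.18) and Fcgr3 (0.45) changed sign. The classes of these libraries sat in different clusters. In the library labelled Nlrc4 deficient, 70.1% of macrophage-like and 89.6% of monocyte-like cells were in cluster 2, which was led by Saa3, Inhba and Il1a, whereas 45.6% of macrophage-like and 79.0% of monocyte-like cells of the DSS library were in cluster 6. Cluster 2 was not confined to that library. It held 40.8%, 25.7% and 23.4% of monocyte-like cells in GF replicate 2, SPF replicate 2 and the antibiotic library, and 5.70% in the DSS library. In SPF replicate 1, GF replicate 1 and the small intestine libraries it was not among the largest clusters of that class. The part of these clusters in the differences was not tested. Fcgr4 had 260 against 498 CPM in macrophage-like cells (-0.93 ± 0.06) and 222 against 367 CPM in monocyte-like cells (-0.71 ± 0.04). Fcgr1 had 123 against 191 CPM (-0.61 ± 0.10) and 154 against 233 CPM (-0.58 ± 0.05), and with clusters its macrophage-like difference was -0.12. Fcer1g went the other way, with 2090 against 1480 CPM in macrophage-like cells (0.50 ± 0.03) and 2398 against 1704 CPM in monocyte-like cells (0.49 ± 0.02). In type 2 dendritic cell-like cells no member was past 2-fold, against 5.92% of 10547 genes, and Fcgr4 had 37.3 against 72.6 CPM (-0.88 ± 0.16). In neutrophil-like cells Fcgr1 (-1.54 ± 0.29), Fcgr2b (-1.18 ± 0.16) and Fcgrt (-1.34 ± 0.74, 4 against 23 UMIs) were past 2-fold, as were 25.6% of 8173 genes. In eosinophil-like cells, just 29 in the Nlrc4-labelled library, Fcgr1 (-3.84 ± 2.06), Fcgr2b (-2.06 ± 0.93) and Fcer1g (1.25 ± 0.17) were past 2-fold. So were 44.9% of 5348 genes. The median log2 ratio of all genes was -0.59 and -0.57 in these 2 classes.

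In the antibiotic library, among macrophage-like, monocyte-like and type 2 dendritic cell-like cells, Fcgr1 was the one member past 2-fold. This was in monocyte-like cells, at 41.2 CPM (41 UMIs), against 174 and 56.1 CPM in SPF (-1.38 ± 0.23), where 1.87% of 9843 genes were past 2-fold. The SPF libraries lay far apart, and the antibiotic interval (29.6 to 55.9 CPM) overlapped that of SPF replicate 2 (46.2 to 67.6 CPM). In neutrophil-like cells Fcgr2b was also past 2-fold (-2.53 ± 1.22), on 1 UMI against 19 in SPF, where 18% of 2889 genes were past 2-fold. In macrophage-like cells Fcgr1 had 47.0 CPM (30 UMIs), against 111 and 63.8 CPM (-0.83 ± 0.27), and no member was past 2-fold, against 3.88% of 9879 genes. The other macrophage-like members had log2 ratios from -0.40 to -0.11. In type 2 dendritic cell-like cells no member was past 2-fold, against 0.565% of 10791 genes.

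The other lists moved little in the DSS library. In monocyte-like cells none of 10 tyrosine-pair genes, 14 kinases and adaptors or 7 inhibitory genes was past 2-fold, with medians of -0.07, 0.04 and 0.30 against 0.08 over all genes. In macrophage-like cells none of 9 tyrosine-pair genes was past 2-fold and 1 of 14 kinases and adaptors was (Blnk, below SPF). B2m had log2 ratios of 0.43 in macrophage-like and 0.32 in monocyte-like cells, where Fcgrt had -0.42 and -0.03.

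Likeness was read as the Pearson correlation of log2(CPM + 1) over 124 sums of a class in a library, among 5919 genes with a mean of at least 20 CPM, as a description only, since the sums share libraries and depth. Fcgr3 was most like Itgam (0.86), which encodes CD11b itself, and Fcer1g (0.83) was among its 5 most like genes. Fcer1g was most like Tyrobp (0.91), its sister adaptor, and Lcp2 (0.88). Fcgr4 was most like Igsf6 (0.86), Sirpb1c (0.83) and C5ar1 (0.83), the C5a receptor. Fcgr2b was most like Cybb (0.80), the phagocyte oxidase subunit, and Csf1r (0.78), the macrophage growth factor receptor. Fcgrt was most like Cttnbp2nl (0.79), Cpq (0.79) and Nav1 (0.79), and its correlation with Fcgr3 was -0.10. Fcgr1 fell below the mean level that the rule asks for and has no such list.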

How the data were processed

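The 9 libraries were made with a 3′ droplet kit (V3). The authors aligned reads to mm10 with STAR 2.5.1b within Cell Ranger (3.0.2 per the file header) and deposited raw UMI counts per gene and barcode, with no normalization. Here cells with at most 15% mitochondrial UMIs and at least 200 genes were kept, as in the study's methods. Cells were put into 17 classes by a likelihood over 145 marker genes, and UMIs were summed per library and class; sums of at least 20 cells were given as levels. The members and lists were chosen with earlier results of these data known. The 6 members and, of each list, up to 4 genes of lowest p per comparison were named.

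Sums were tested with edgeR 4.0.16 in R 4.3.3 (TMM scaling, filterByExpr, quasi-likelihood test, Benjamini-Hochberg adjustment at 0.05), with the GF, small intestine and SPF libraries in one fit, and class pairs with library as a block. Shares and the order of classes were tested with exact sign-flip permutations in Python 3.11.15 with scipy 1.17.1. Intervals are 95% and cover counting error only. Single libraries were compared as log2(CPM + 5) for genes with at least 10 UMIs. Alternatives were DESeq2 1.42.0, no filter on low counts, replicate or library blocks, stricter cells (10% and 500 genes), a stricter marker gate, classes from Leiden clusters (scanpy 1.11.5), a pseudocount of 1 and each library left out. Scrublet marked 133 of 31759 cells (0.419%) and was judged not to have worked; instead 1401 cells with markers of another lineage were removed in an alternative added after seeing the data. The fits were tested on simulated counts. Promoters were read from RefSeq starts (GRCm38.p6), and gene positions, coding stretches and transcripts from GENCODE on GRCm38. The starts of these annotations differ, so that the windows of Fcgr3 and Fcgr2b lie inside the gene spans given.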

Additional observations from a re-analysis of the deposited data

Results flagged for a closer look

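Fcgr3 in the small intestine libraries lay above both SPF colon libraries in macrophage-like cells (log2 fold change 0.39) and below both in eosinophil-like cells (-1.01); the difference between the classes was not tested. Fcgrt in the small intestine libraries lay above both SPF colon libraries in monocyte-like cells (0.94) and below both in type 2 dendritic cell-like cells (-1.23), and here too the difference was not tested.

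The 30 mast cell-like or basophil-like cells, from 7 libraries, entered no comparison. Summed, they held 847 CPM of Fcer1g (186 UMIs, exact 95% Poisson interval 729 to 977), against 153 CPM in T cell-like cells, with 492 CPM of Fcer1a and 364 CPM of Ms4a2, the other chains of the high-affinity IgE receptor. Fcgr2b stood at 50.1 CPM (11 UMIs, 25.0 to 89.6), against 8.99 CPM in T cell-like cells, and Fcgr3 at 36.4 CPM (8 UMIs, 15.7 to 71.7), against 7.61 CPM. These intervals cover counting error only.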

How the results depend on the processing

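Of 25 calls of members, 19 held under every alternative run and 6 were lost under at least 1. Genes called in GF against SPF colon, 0 in each class, numbered 2 in macrophage-like and 1 in type 2 dendritic cell-like cells with DESeq2, and 74, 42, 7 and 40 in macrophage-like, monocyte-like, eosinophil-like and type 2 dendritic cell-like cells with no filter on low counts. With 1 library left out they ran from 0 to 1 in macrophage-like and 0 to 13 in eosinophil-like cells, where clusters gave 2. In small intestine against SPF colon, DESeq2 called 46, 25 and 147 genes in macrophage-like, eosinophil-like and type 2 dendritic cell-like cells, and no filter gave 283, 68, 60 and 570 with monocyte-like cells second. Clusters gave 48 and 3, and the stricter gate 0 and 1, in eosinophil-like and type 2 dendritic cell-like cells; stricter cells gave 2 in eosinophil-like cells, and removal of cells with other-lineage markers, added after seeing the data, 27 in type 2 dendritic cell-like cells. With 1 library left out the counts ran from 0 to 12 in macrophage-like, 0 to 84 in eosinophil-like and 0 to 19 in type 2 dendritic cell-like cells. The cause was not tested.

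Replicate numbers were not treated as pairs, since the labels tie them to no shared animal, batch or day and each group has 2. Deviations of same-numbered libraries correlated at 0.257 to 0.388 (GF with SPF), -0.0349 to 0.242 (small intestine with SPF) and -0.0816 to 0.0858 (small intestine with GF). With the replicate block, 1, 4 and 2 genes were called in GF monocyte-like, eosinophil-like and type 2 dendritic cell-like cells, and 8, 37 and 297 in small intestine macrophage-like, eosinophil-like and type 2 dendritic cell-like cells, Fcgr1 in the last among them (-2.16, adjusted p = 0.036 by edgeR).

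Between classes, 1459 genes were called in macrophage-like against monocyte-like cells without the library block, against 2772 with it, and 2179 in eosinophil-like against monocyte-like cells with the stricter gate, against 3286. The activating share of macrophage-like minus monocyte-like cells passed with clusters (3.18 points). Fcgr2b passed as higher in macrophage-like than in monocyte-like cells without small intestine replicate 1 (0.30, adjusted p = 0.047 by edgeR). Genes past 2-fold with a pseudocount of 1 numbered 988, 838 and 1081 in DSS, 1151, 857 and 504 in antibiotic and 2225, 2077 and 1658 in Nlrc4-labelled against DSS macrophage-like, monocyte-like and type 2 dendritic cell-like cells, and 945 in DSS neutrophil-like cells with clusters. With 1 library left out, signs changed for Fcgrt in GF macrophage-like cells (-0.53 without GF replicate 1, to 1.06), and, without SPF replicate 1, for Fcgr4 in GF monocyte-like cells (-1.61 to 0.16), Fcgr1 in GF type 2 dendritic cell-like cells (-1.40 to 0.0057) and Fcgr1 in small intestine monocyte-like cells (-1.27 to 0.29). With clusters they changed for Fcgr3 (0.45) and Fcgrt (0.18) in Nlrc4-labelled macrophage-like cells and Fcgr2b in antibiotic type 2 dendritic cell-like cells (-0.066). Clusters also lowered the DSS ratios of Fcgr1 (0.67) and Fcgr4 (0.98) in macrophage-like cells below 2-fold, and gave 1.99 for Fcgr4 in eosinophil-like cells. Few cells limit the GF and small intestine monocyte-like sums, of 30 to 76 cells.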
